A study of Mus musculus with 14 samples.

Results

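Liver tumours that had received only a solvent were compared with normal liver of male mice of the inbred strain C3HeB/FeJ, in which liver tumours arise spontaneously with age. The comparison used 8 of the 14 samples of the series. Its members were chosen by the treatment labels: 4 tumours labelled DMSO or phosphate citrate buffer, and the 4 normal livers. The other 6 samples are tumours given the histone deacetylase inhibitor SAHA, the alkylating drug temozolomide (TMZ) or both, and they entered only to estimate the spread and in 1 comparison below.

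All mice were 18 months old at collection in the labels, after an examination for tumours at 10 months and 6 cycles of injections on 5 days in every 28. The normal livers (Normal 1 to 4) had received phosphate citrate buffer. Among the tumours, Grow 1, Grow 5 and Regress 4 were labelled DMSO and Regress 2 was labelled phosphate citrate buffer. The words Grow and Regress are the submitters' own, and the labels do not say how either was scored or how DMSO was dosed. Since 3 of the 4 tumours and none of the normal livers were labelled DMSO, solvent and tumour cannot be told apart outside Regress 2. The labels give Normal 4 the code that Regress 2 also has, and do not say whether both came from 1 mouse.

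Hepatocytes make bile acids, plasma proteins and most drug-metabolising cytochrome P450 enzymes, and they rarely divide in the healthy adult. Liver tumours of C3H mice are known for mutations that activate the ERK kinase cascade, which runs from growth factor receptors through Ras, Raf and Mek to immediate early genes and to cyclin D1. Tumours of hepatocyte origin can also switch on genes of the fetal liver, with alpha-fetoprotein as the classical marker.

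RNA abundance was measured as estimated counts per RefSeq transcript, summed here per gene. The 4 normal livers held 5270000 to 7470000 estimated counts each (rounded totals). Grow 1 held 13390000, Grow 5 held 9300000, Regress 2 held 6090000 and Regress 4 held 5960000. Levels are given in CPM, a gene's count as a share of its library after scaling by the TMM method, so they compare 1 gene between libraries and not different genes. A run of 4 levels is in the order Normal 1, 2, 3, 4 or Grow 1, Grow 5, Regress 2, Regress 4. A gene was called where edgeR's quasi-likelihood test gave a Benjamini-Hochberg adjusted p under 0.05 over all features tested. Fold changes are tumour over normal on the log2 scale, with their standard errors.

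The test called 830 of 12300 features (6.75%), 525 of them higher (4.27%) and 305 lower (2.48%) in the tumours. The median log2 fold change of all features was 0.00, and 802 of the called features differed by at least 1 on that scale. With limma-voom in place of edgeR the split was 241 higher and 278 lower, so the share of higher calls went from 63.3% to 46.4%. The levels of the 4 tumours and 4 normal livers did not overlap for 1900 features (15.4%), with the tumours higher for 9.04% and lower for 6.41%. These included 786 of the 830 called. The first principal component, with 43.2% of the variance, separated the normal livers (-64.7 to -41.1) from the tumours (25.3 to 81.7). The second, with 27.8%, ran from Normal 3 (-78.5) and Regress 4 (-40.7) to Normal 2 (45.2) and Regress 2 (82.2) and so spread both groups. The slope of log2 levels on log2 transcript length was 0.45, 0.39, -0.26 and -0.39 in these libraries, in that order. The other libraries lay between them on both measures. The part of transcript length in this component, and in differences between Regress 2 and Regress 4, was not tested.

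The number of calls depended on single libraries. Without any 1 of the 4 normal livers the number called fell to between 243 and 393. It was 320 without Grow 1, 377 without Regress 4, 645 without Grow 5 and 803 without Regress 2. Without Normal 4 and Regress 2, which share a sample code, 37 features were called and 2278 had an unadjusted p under 0.05. Without Normal 3, far from the other normal livers on the second component, and Regress 4, highest in collagen genes (a pair chosen after seeing the data), edgeR called 0 features and 1904 had an unadjusted p under 0.05. In that last fit the called genes named here by rule had adjusted p from 0.0687 to 0.269, with 67 of 113 under 0.1. Of the same 113 genes, 46 stayed called whichever single library was left out.

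**Figure D1:**
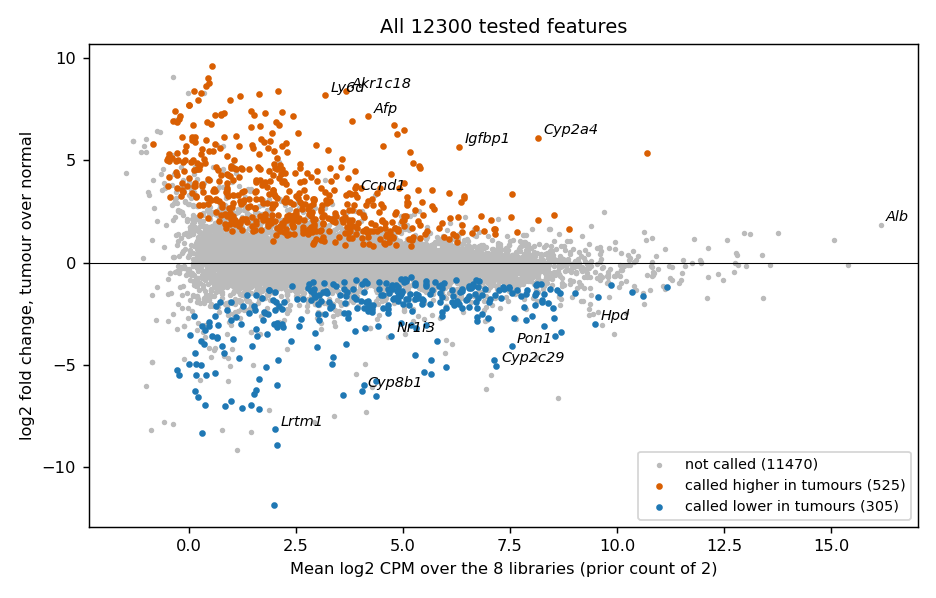
Log2 fold change of tumours given no drug over normal liver (vertical axis) against the mean log2 CPM over the 8 libraries (horizontal axis) for each of the 12300 features tested. Orange points are the 525 features called higher, blue points the 305 called lower and grey points the rest, which were not called, and most calls lie beyond 1 in either direction.

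The gene lists used below came from textbook knowledge of liver and tumour biology. Lists and members were, however, chosen with earlier results of these data known, so their shares of calls are not independent of these data. Among lists of at least 5 tested members, those called higher were most frequent among genes of mitosis, oncofetal markers and immediate early genes. Those called lower were most frequent among genes of bile acid synthesis, cytochrome P450 enzymes and Kupffer cell markers.

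**Figure D2:**
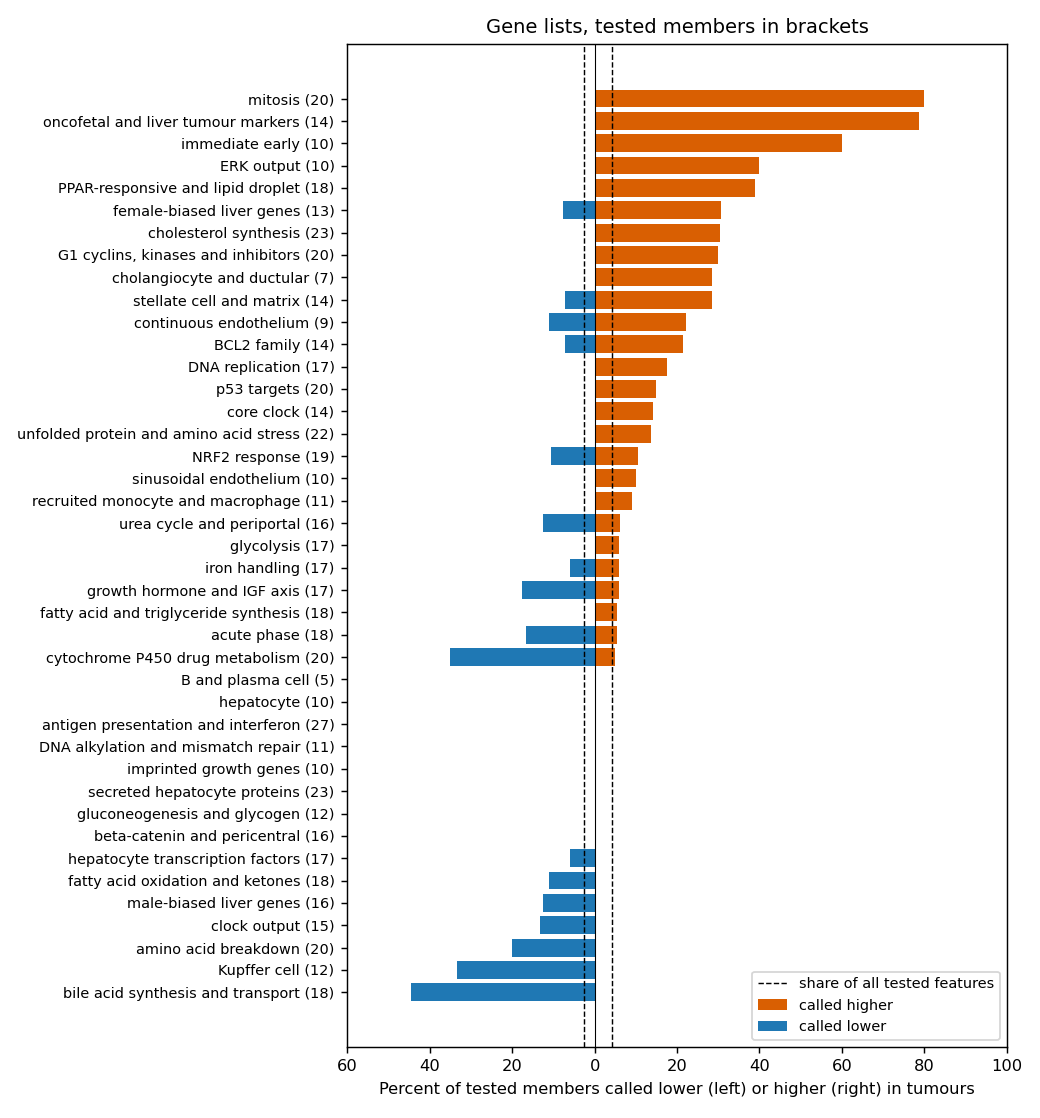
Percent of the tested members of each gene list that were called higher (orange, to the right) or lower (blue, to the left) in tumours, with the number of tested members in brackets and lists of under 5 tested members left out. Dashed lines mark the shares among all features, 4.27% higher and 2.48% lower, and the mitosis list (16 of 20 higher) and the bile acid list (8 of 18 lower) reach farthest on either side.

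Cyclin D1, which carries cells through G1 with its partner kinases, was higher in every tumour. Ccnd1 stood at 4.92, 3.33, 4.18 and 5.53 CPM in the normal livers and at 52.4, 38.5, 50.4 and 46.0 CPM in the tumours. The groups lay far apart and each was narrow. The rise was 3.38 ± 0.38 on the log2 scale (SE, 4 against 4; edgeR adjusted p = 0.00351), a 10.4-fold difference. The 6 drug-treated tumours stood at 11.4 to 43.4 CPM.

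Some inhibitors of the same kinases rose with it. Cdkn1a (p21), which blocks cyclin-dependent kinases and is a target of p53, was at 4.21, 8.76, 3.88 and 1.89 CPM in normal liver and at 55.8, 22.0, 39.3 and 74.1 CPM in the tumours, so the lowest tumour lay above the highest normal liver (log2 change 3.35 ± 0.60, adjusted p = 0.0111). Cdkn2b (p15), an inhibitor of Cdk4 and Cdk6, was at 0.527, 1.05, 0 and 0.727 CPM in normal liver and at 53.3, 13.9, 29.9 and 37.7 CPM in the tumours (5.85 ± 1.14, adjusted p = 0.0126). Its neighbour Cdkn2a, which encodes p16 and p19Arf, rose by 4.06 ± 0.87, from at most 1.05 CPM in normal liver to between 3.42 and 19.6 CPM. Cdkn2c (p18) rose by 3.23 ± 0.53, and Ccne1, the cyclin that acts after cyclin D, by 3.37 ± 0.71. These 6 were the called members among 20 tested genes of the G1 cyclins, their kinases and inhibitors (30% against 4.27% of all features), and none was called lower. The median log2 fold change of the 20 was 0.62, against 0.00 over all features. The inhibitors Cdkn1b, Cdkn1c and Cdkn2d were not called, nor were the retinoblastoma gene Rb1, Cdk2, Cdk4, Cdk6 and Myc. In Regress 2, 12 of the 20 lay above and 4 below every normal liver (60% and 20%), against 27.8% and 30.7% of all features. Without Normal 3 or without Normal 4 the list had 4 calls, without Normal 4 and Regress 2 together 2, and without Normal 3 and Regress 4 together 0.

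The genes of mitosis divided the tumours. All 20 tested members lay above every normal liver in Grow 1, in Grow 5 and in Regress 4, where 24.5%, 23.8% and 29.8% of all features did. In Regress 2 only 7 of the 20 did, 1 lay below all normal livers, against 27.8% and 30.7% of all features. The proliferation marker Mki67 was at 0.702, 0, 1.20 and 0.145 CPM in normal liver and at 8.86, 12.6, 0 and 21.3 CPM in the tumours. Regress 2 thus had no Mki67 count, and a count of 0 allows up to 3 counts in that library. Ccna2, the S-phase and G2 cyclin, was at 0.149 to 0.527 CPM in normal liver and at 5.71, 5.94, 0.198 and 7.62 CPM in the tumours, again with Regress 2 among the normal livers. Top2a, the topoisomerase that untangles replicated DNA, was at 5.71, 11.3, 0.593 and 14.7 CPM in the tumours and at 0.291 to 0.598 CPM in normal liver.

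Cdk1, the kinase that drives entry into mitosis, was among the 7 members whose groups did not overlap (9.04% of all features were higher without overlap). It was at 0.702, 0.876, 0.299 and 0.291 CPM in normal liver and at 6.89, 5.59, 1.98 and 7.34 CPM in the tumours, a rise of 3.33 ± 0.58 (adjusted p = 0.0111). The test called 16 of the 20 members higher (80% against 4.27% of all features) and none lower, with a median of 3.74. Top2a rose by 4.02 ± 0.83, Ccna2 by 4.04 ± 0.85, Mki67 by 4.33 ± 1.19 and the spindle checkpoint kinase Bub1b by 3.76 ± 0.81. The levels were low, so each of these calls rests on few counts in normal liver. The count of 16 moved to 19 without Regress 2, to 10 without Grow 5, and to between 2 and 6 without any other single library. It was 4 without Normal 4 and Regress 2, 0 without Normal 3 and Regress 4, 1 with limma-voom and 0 with the replicate number as a block. With only the 8 samples in the fit, so that the drug-treated tumours no longer helped to estimate the spread, it was 1.

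DNA replication genes differed less. Of 17 tested members 3 rose (17.6% against 4.27% of all features) and none fell, with a median of 0.72. Rrm2, a subunit of the enzyme that makes deoxynucleotides, was at 2.63, 2.10, 1.49 and 2.62 CPM in normal liver and at 11.1, 13.6, 3.36 and 14.8 CPM in the tumours (2.28 ± 0.48, adjusted p = 0.0158). The helicase subunit Mcm2 rose by 1.92 ± 0.43 and the DNA ligase Lig1 by 1.79 ± 0.39. Regress 2 was next to normal liver for Rrm2, whereas its Mcm2 level of 7.12 CPM was above Grow 1 (5.05 CPM) and Grow 5 (4.68 CPM). Of the 17 members, 7 lay above and 4 below every normal liver in Regress 2 (41.2% and 23.5%). Of all features, 27.8% lay above and 30.7% below there, so the members below were under that share. In the other tumours 8 to 10 members lay above and 0 to 2 below. Of all features, 23.8% to 29.8% lay above and 19.5% to 27.4% below in those tumours. The 3 calls became 0 without Normal 3, 1 without Normal 4 or Regress 4, and 2 without Normal 1 or Normal 2.

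**Figure D3:**
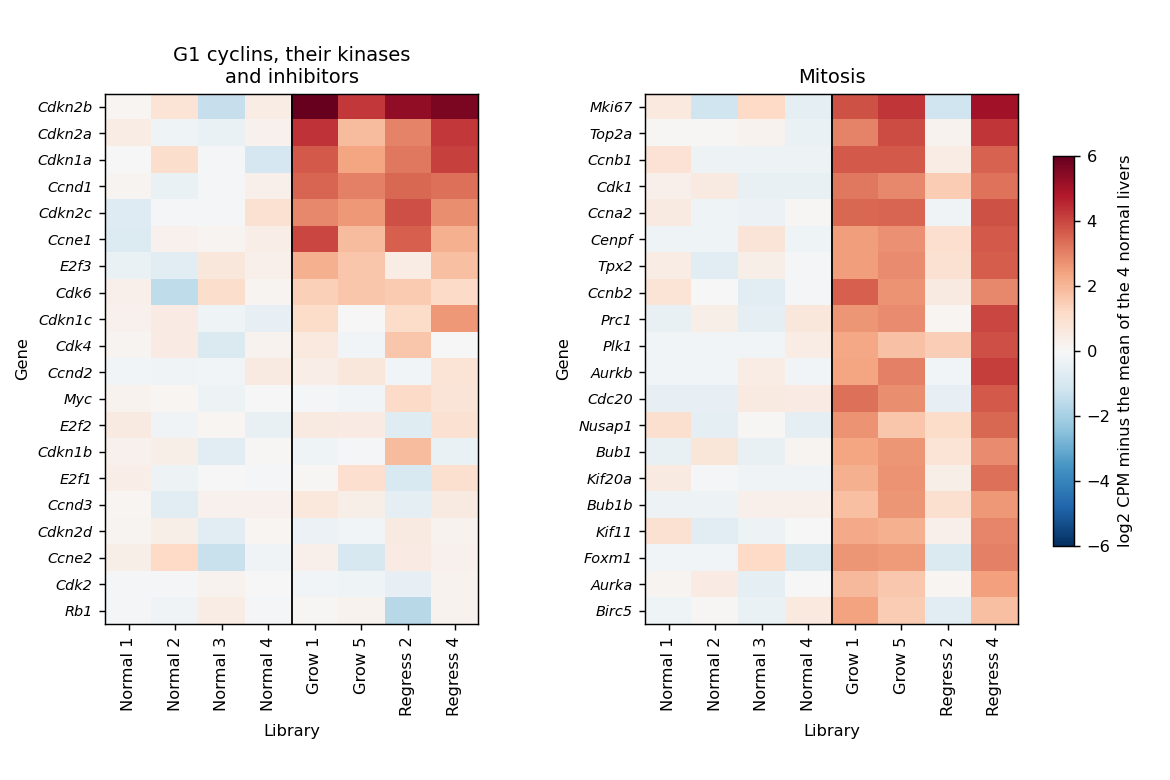
Log2 CPM of the 20 tested G1 genes (left) and the 20 tested mitosis genes (right) in the 4 normal livers and 4 tumours, each row given as the difference from its mean in normal liver, with red for higher and blue for lower. All 4 tumours are red for Ccnd1 and the Cdkn genes at the top left, whereas on the right Regress 2 stays near the normal livers and the 3 other tumours are red throughout.

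The promoters of the mitosis genes that rose were read from RefSeq (GRCm38.p6) because several of them carry the cell cycle genes homology region, an element known for repression outside G2 and mitosis. Of the 16 called genes 12 had a promoter entry of 300 bases, 250 before the start and 50 after. The motif TTTGAA was searched on both strands (TTCAAA on the other). It was in at least 1 window of 9 of the 12 genes and in 17.9% of all 32851 windows. Within the 250 bases before the start it was in 5 of the 12 genes, Ccnb2, Cdk1, Mki67, Prc1 and Top2a, and in 16.0% of all windows. Genes were counted over any of their windows and the percentages over single windows, so the shares are not directly comparable. The motif was chosen after several others had been looked at in these windows, and a match is a description of the sequence and not a binding site. The stretches that hold it in 4 of the 5 genes are shown 5′ to 3′ on the gene's own strand, which is the minus strand in all 4, with the motif in capitals. They are chr10:69352913-69353032 for Cdk1, chr9:70421555-70421804 for the mitotic cyclin gene Ccnb2, chr7:135716380-135716499 for Mki67 and chr11:99024190-99024309 for Top2a, and each ends at the base before the start.
Cdk1: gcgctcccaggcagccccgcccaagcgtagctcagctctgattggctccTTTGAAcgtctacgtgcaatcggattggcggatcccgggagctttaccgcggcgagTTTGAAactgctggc
Ccnb2: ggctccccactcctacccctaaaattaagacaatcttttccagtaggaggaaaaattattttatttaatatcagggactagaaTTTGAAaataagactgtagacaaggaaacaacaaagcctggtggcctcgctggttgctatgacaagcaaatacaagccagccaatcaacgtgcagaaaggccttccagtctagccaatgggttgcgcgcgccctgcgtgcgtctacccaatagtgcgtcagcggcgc
Mki67: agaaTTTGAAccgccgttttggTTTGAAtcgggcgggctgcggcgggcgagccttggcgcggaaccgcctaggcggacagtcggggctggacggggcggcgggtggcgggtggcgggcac
Top2a: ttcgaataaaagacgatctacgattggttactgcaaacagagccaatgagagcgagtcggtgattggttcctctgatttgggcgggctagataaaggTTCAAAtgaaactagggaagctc
Cdk1 holds 2 copies in the stretch shown, 71 and 15 bases before the start, and Mki67 holds 2, 116 and 98 bases before it. In Ccnb2 the single copy begins 167 bases before the start, and in Top2a the copy shown begins 23 bases before it.

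Of 10 tested genes switched on by ERK signalling, 4 rose in the tumours (40% against 4.27% of all features). None fell, and the median was 2.00. Dusp6, the phosphatase that switches off ERK in the cytoplasm, was at 22.3, 20.1, 18.1 and 18.3 CPM in normal liver and at 85.9, 75.2, 112 and 123 CPM in the tumours. Both groups were narrow and far apart, and the rise was 2.33 ± 0.33 (adjusted p = 0.0091). Dusp5, the related phosphatase of the nucleus, had 0 counts in 3 normal livers and 0.149 CPM in Normal 3, against 9.60, 2.85, 4.55 and 17.9 CPM in the tumours (7.24 ± 1.52, adjusted p = 0.0158). Dusp4 rose by 2.17 ± 0.50, and Spred1, a membrane inhibitor of the cascade, by 1.44 ± 0.26. These were the 4 called. Etv5, an ERK-induced transcription factor, was at 10.6, 10.7, 3.56 and 16.6 CPM against 1.93 to 3.86 CPM (adjusted p = 0.0539), and Spry4 at 10.6 to 14.6 against 2.76 to 5.78 CPM (adjusted p = 0.151). The list had 2 calls without Normal 1 or without Normal 3, and 0 without Normal 3 and Regress 4.

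Of 10 tested immediate early genes, which respond within minutes to growth signals, 6 rose (60% against 4.27% of all features). None fell, and the median was 1.86. Egr1 was at 3.16, 0.350, 1.49 and 5.09 CPM in normal liver and at 73.8, 49.5, 48.6 and 90.4 CPM in the tumours (4.68 ± 1.02, adjusted p = 0.0172). Btg2, which restrains proliferation, was at 13.9, 8.23, 4.63 and 8.87 CPM and at 97.8, 117, 174 and 64.5 CPM (3.67 ± 0.68, adjusted p = 0.0112). The groups were clear of each other for both. Jun rose by 2.03 ± 0.43, Junb by 1.69 ± 0.37, Fos by 2.90 ± 0.71 and Klf6 by 1.56 ± 0.42, the last with Regress 2 highest at 85.6 CPM against 22.9 to 25.7 CPM in the other tumours. The list had 2 calls without Normal 3 or Normal 4, 3 without Normal 1, and 0 without Normal 4 and Regress 2 together.

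Oncofetal and liver tumour markers showed the largest differences. Of 14 tested members 11 rose (78.6% against 4.27% of all features) and none fell, with a median of 5.63. Afp, alpha-fetoprotein, was at 1.40, 0.876, 0.299 and 4.51 CPM in normal liver and at 306, 77.4, 222 and 430 CPM in the tumours (7.16 ± 1.22, adjusted p = 0.0111). Gpc3, a heparan sulfate proteoglycan used to diagnose human liver cancer, was at 0.876 to 1.93 CPM in normal liver and at 257, 63.5, 48.6 and 295 CPM in the tumours (6.91 ± 1.53, adjusted p = 0.0178). Every tumour lay above every normal liver for these genes. Gpc3 was higher in Grow 1 and Regress 4 than in the other two.

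Ly6d, a small lipid-anchored surface protein, was at 0.299 to 0.876 CPM in normal liver and at 290, 29.1, 115 and 146 CPM in the tumours (8.17 ± 1.19, adjusted p = 0.00971). Scd2, a fatty acid desaturase of fetal liver and brain, rose by 5.41 ± 1.10, Golm1, a Golgi protein, by 4.14 ± 0.95, and Prom1, the stem cell antigen CD133, by 5.47 ± 1.14. Tff3, a secreted trefoil peptide of mucous epithelia, ranged widely among the tumours, with 347, 210, 971 and 77.6 CPM against 0.350 to 11.8 CPM (6.30 ± 1.38). Spink1, a secreted protease inhibitor, had 0 counts in all normal livers and 43.5, 5.02, 1.98 and 5.50 CPM in the tumours, at least 117-fold higher when normal liver is set to 3 counts over the group (0.12 CPM). The transcription factor Sox4 rose by 5.78 ± 1.13 and lipocalin Lcn2 by 3.27 ± 0.75. Igf2, fetal insulin-like growth factor, was not called, at 0.175 to 0.527 CPM and 0.198 to 1.94 CPM. The 11 calls became 5 to 7 without any single normal liver, 2 without Normal 4 and Regress 2, and 0 without Normal 3 and Regress 4.

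**Figure D4:**
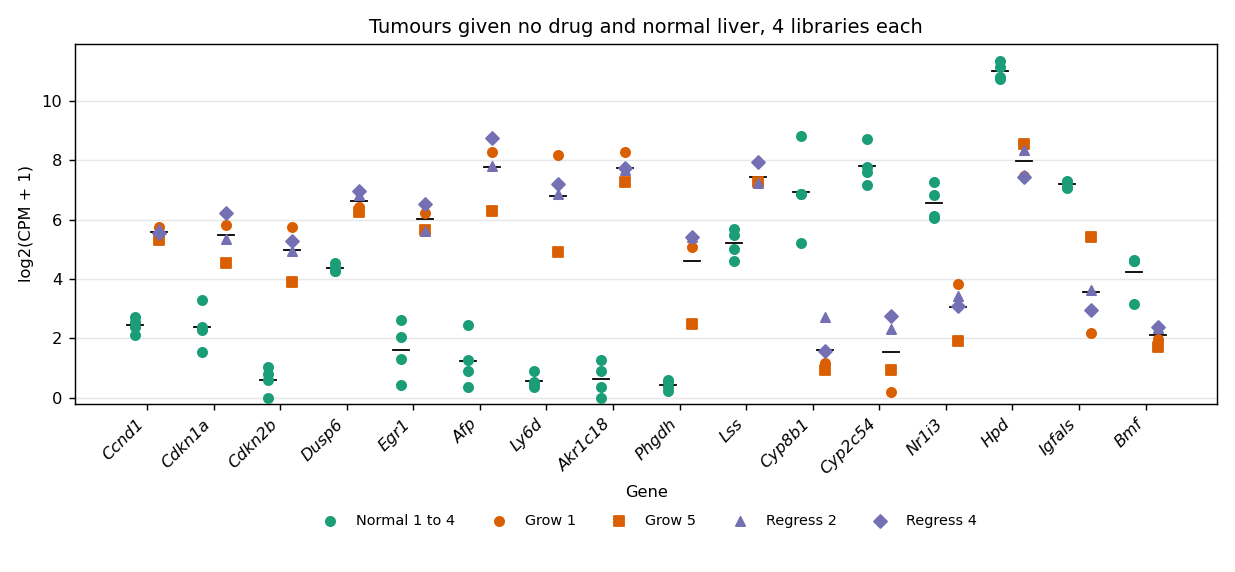
Level of 16 genes in each library, as log2(CPM + 1) on the vertical axis, with normal livers in green on the left of each gene, Grow tumours in orange and Regress tumours in purple on the right, and a black line at the mean of each group's log2 values. The 4 tumours lie wholly above the 4 normal livers from Ccnd1 to Lss and wholly below them from Cyp8b1 to Bmf.

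The 8 largest rises among well measured genes were Alox5, Akr1c18, Igdcc4, Ly6d, Erich4, Gpnmb, Prom2 and Cyp2b13, from 7.34 to 8.38 on the log2 scale. Alox5, the lipoxygenase that starts leukotriene synthesis, was at 0.351, 0, 0.149 and 0 CPM in normal liver and at 60.8, 38.4, 36.2 and 50.1 CPM in the tumours (8.38 ± 1.74, adjusted p = 0.0151). Akr1c18, which inactivates progesterone, was at 1.40, 0, 0.299 and 0.873 CPM and at 309, 153, 204 and 212 CPM (8.38 ± 1.47, adjusted p = 0.0111). Igdcc4, a surface protein of the immunoglobulin superfamily, was at most 0.175 CPM in normal liver and 44.4, 13, 20.4 and 42.0 CPM in the tumours. The tumours were alike for Alox5 and Akr1c18 and less so for Igdcc4, while Gpnmb, a lysosomal glycoprotein of macrophages, was at 5.57, 3.42, 4.55 and 217 CPM and so very uneven. Without Regress 4 its log2 change went from 7.40 to 3.73, with an adjusted p of 0.0862. Since normal liver had at most a few counts for these genes, the size of each fold change depends on the prior count. Akr1c18 and Cyp2b13 have near-identical copies in the genome, between which estimated counts can be split.

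Of 18 tested genes of bile acid synthesis and transport 8 fell (44.4% against 2.48% of all features) and none rose, with a median of -1.61. Cyp8b1, the enzyme that makes cholic acid, was at 116, 36.4, 116 and 451 CPM in normal liver and at 1.25, 0.913, 5.54 and 1.98 CPM in the tumours (-6.28 ± 1.24, adjusted p = 0.0135). Cyp7a1, the rate-limiting enzyme of the classical pathway, was at 91.1, 142, 86.5 and 549 CPM and at 0.659, 0, 4.74 and 8.61 CPM (-5.99 ± 1.56, adjusted p = 0.0347). The highest tumour was thus far below the lowest normal liver for both, although normal livers themselves ranged several-fold. Cyp7b1 (-5.33 ± 1.06) and Cyp27a1 (-2.87 ± 0.55), of the alternative pathway, fell too. So did Akr1d1 (-2.21 ± 0.43), the reductase of the sterol ring, and Slc27a5 (-1.32 ± 0.29), the bile acid ligase.

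Among the uptake carriers of the sinusoidal membrane, Slc10a1 (NTCP) was at 465, 306, 676 and 969 CPM in normal liver and at 92.3, 225, 159 and 101 CPM in the tumours (-2.06 ± 0.46, adjusted p = 0.0178). Slco1b2 was at 1414, 1528, 1097 and 2274 CPM and at 30.2, 169, 120 and 273 CPM (-3.41 ± 0.84, adjusted p = 0.0285). The export pump Abcb11 was not called, with overlapping levels of 195 to 672 and 75.1 to 381 CPM. The bile acid receptor Nr1h4 (FXR) was at 67.6 to 113 CPM and at 27.2 to 71.2 CPM (adjusted p = 0.0871). The list had 4 calls without Normal 3, Normal 4 or Grow 1, 5 without Regress 4, and 0 without either pair of libraries named above.

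Cytochrome P450 enzymes of drug metabolism moved in the same direction, with 7 of 20 tested members lower and 1 higher. The share called was 40%, against 6.75% of all features, and the median was -1.74. Cyp2c29 was at 653, 411, 1534 and 1822 CPM in normal liver and at 6.81, 31.7, 13.4 and 82.8 CPM in the tumours (-5.04 ± 0.94, adjusted p = 0.0115). Cyp2c37 (-5.46 ± 1.16), Cyp2c50 (-4.77 ± 1.07), Cyp2c70 (-1.67 ± 0.42) and Cyp3a13 (-1.43 ± 0.33) fell as well, and Cyp2b13 was the member that rose. Cyp2c54 was at 193, 144, 218 and 415 CPM and at 0.147, 0.913, 3.95 and 5.78 CPM (-6.54 ± 1.19, adjusted p = 0.0111). Members of the Cyp2c family resemble each other closely, so their single values are uncertain. Nr1i3, the nuclear receptor CAR that drives Cyp2b and Cyp2c genes, was at 68.3, 154, 65.1 and 112 CPM in normal liver and at 13.1, 2.74, 9.69 and 7.62 CPM in the tumours (-3.59 ± 0.57, adjusted p = 0.0111). It was the only called gene of 17 tested hepatocyte transcription factors (5.88% lower, against 2.48% of all features). Hnf4a was at 249 to 589 CPM and 359 to 468 CPM. Cyp3a11 was not called: it was at 4103 to 5502 CPM in normal liver, at 243, 2245 and 404 CPM in Grow 1, Grow 5 and Regress 4, and at 4923 CPM in Regress 2. The 7 lower calls became 4 without Normal 4, 3 without Grow 1 and 1 without Normal 4 and Regress 2.

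The 8 largest falls were Serpina4-ps1, Lrtm1, Fam25c, Slc22a28, Susd4, Cyp2c54, Hectd2os and Cyp8b1, from -8.90 to -6.28. Lrtm1, a leucine-rich repeat membrane protein, was at 30.4, 45.7, 35.9 and 43.5 CPM in normal liver and at 0.0733, 0.114, 0.198 and 0.141 CPM in the tumours, which is about 1 count in each (-8.15 ± 1.5, adjusted p = 0.0112). Susd4, a complement regulator, was at 17.6, 6.13, 26.6 and 35.3 CPM and at 0, 0.114, 0 and 0.564 CPM (-6.96 ± 1.46, adjusted p = 0.0154). Slc22a28, an organic anion carrier of liver and kidney, fell by 7.11 ± 1.77. Serpina4-ps1 is a pseudogene, and Hectd2os is an antisense transcript that this kit cannot separate by strand from its partner, so both are uncertain. Pon1, the paraoxonase carried on high-density lipoprotein, was at 724, 1100, 446 and 958 CPM and at 28.9, 42.0, 48.4 and 69.3 CPM (-4.10 ± 0.79, adjusted p = 0.0124).

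The growth hormone and IGF axis differed at its liver end. Pituitary growth hormone acts through its receptor on hepatocytes, which release IGF1 and its carrier proteins. Of 17 tested members 3 fell and 1 rose (23.5% called, against 6.75% of all features), and the median was 0.11. Igfals, the subunit that holds IGF1 in the circulating complex, was at 136, 154, 155 and 134 CPM in normal liver and at 3.59, 41.8, 11.5 and 6.77 CPM in the tumours (-3.19 ± 0.64, adjusted p = 0.0139). The receptor Ghr (-1.98 ± 0.41) and Igf1 (-1.93 ± 0.44) fell, and neither overlapped between groups. Igfbp1, a binding protein induced in fasting and stress, was at 9.13, 11.4, 4.33 and 30.5 CPM and at 553, 167, 1034 and 1081 CPM (5.67 ± 1.05, adjusted p = 0.0112). Without Grow 1 only 1 of the 3 falls was called, and without Normal 4 and Regress 2 none was.

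Genes that differ between the sexes in mouse liver, through the pulse pattern of growth hormone, were uneven already among the normal livers. Of 13 tested female-biased genes 4 rose and 1 fell (38.5% called, against 6.75% of all features), with a median of 3.31. Of 16 male-biased genes 2 fell (12.5% against 2.48% of all features) and none rose, with a median of -2.96. Cyp2a4, a steroid hydroxylase, was at 50.0, 88, 6.72 and 37.1 CPM in normal liver and at 3185, 1635, 6543 and 1168 CPM in the tumours (6.11 ± 1.37, adjusted p = 0.0190). Abcd2, a peroxisomal carrier, rose by 4.31 ± 0.90. Normal 2 stood apart from the other normal livers for Hsd3b5, a male-specific enzyme, which was at 5.43 CPM there and at 92.2 to 337 CPM in them. Hsd3b5 was at 0.440 to 9.88 CPM in the tumours (adjusted p = 0.0519). The summed level of the female-biased list was 1267 CPM in Normal 2, 60.37 to 138.9 CPM in the other normal livers and 1600 to 7056 CPM in the tumours, and its mean log2 CPM was 4.00 in Normal 2, 0.53 to 1.97 in the others and 3.60 to 4.24 in the tumours. Normal 2 was thus already near or at the tumours' level for the list as a whole. Cyp7b1 and Elovl3 were the 2 male-biased genes that fell. The 4 female-biased calls became 1 without Normal 1 or Normal 4 and 0 without Normal 4 and Regress 2. Cyp2a4 and Cyp2b13 share reads with near-identical copies.

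Amino acid breakdown was lower at 4 of 20 tested members (20% against 2.48% of all features). None was higher, and the median was -0.845. Hpd, the second enzyme of tyrosine breakdown, was at 2258, 1691, 1801 and 2606 CPM in normal liver and at 178, 376, 325 and 173 CPM in the tumours (-2.99 ± 0.45, adjusted p = 0.0111). Hgd (-1.59 ± 0.34), the next enzyme, Aass (-1.36 ± 0.32) of lysine breakdown and Prodh (-3.04 ± 0.81) of proline breakdown fell as well. Without Normal 4, Grow 1 or Regress 4 only 1 of the 4 was called, and without Normal 1 or Normal 3 2 were. In the urea cycle list of 16 the lyase Asl (-1.61 ± 0.41) and the ornithine carrier Slc25a15 (-1.22 ± 0.31) fell, whereas Cdh1, E-cadherin of periportal hepatocytes, rose by 5.68 ± 1.37, from 0.701 to 6.13 CPM up to 144, 254, 93.1 and 251 CPM. The share called was 18.8%, against 6.75% of all features. Asl and Slc25a15 each lost their call in 7 of the 8 fits without 1 library, and Cdh1 in 6.

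Enzymes that make serine rose instead. Phgdh, the first enzyme of serine synthesis, was at 0.527, 0.175, 0.299 and 0.436 CPM in normal liver and at 33.1, 4.57, 41.5 and 42.0 CPM in the tumours (6.32 ± 1.11, adjusted p = 0.0111). Psat1, the next enzyme, was at 0.299 to 0.702 CPM and at 27.5, 5.14, 7.91 and 15.0 CPM (4.68 ± 0.81, adjusted p = 0.0111). Grow 5 was the lowest tumour for both. With the pseudokinase Trib3 (2.45 ± 0.70), which was at 98.3 CPM in Regress 2 and 17.9 to 30.5 CPM in the other tumours, they were the 3 called of 22 tested genes of the unfolded protein and amino acid stress response, whose median was 0.55. That is 13.6% higher, against 4.27% of all features. Trib3 was not called without any single library. Of the other members, Asns, asparagine synthetase, was at 32.6 and 46.0 CPM in Grow 1 and Regress 4 and at 0.799 and 0.593 CPM in Grow 5 and Regress 2. Slc1a4, Pck2, Aldh1l2 and Mthfd1l, of neutral amino acid uptake, phosphoenolpyruvate synthesis and mitochondrial folate metabolism, were looked at after their values were seen, and rose by 4.00 ± 0.89, 2.79 ± 0.50, 3.29 ± 0.71 and 1.87 ± 0.51.

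Cholesterol synthesis was higher at 7 of 23 tested members (30.4% against 4.27% of all features). None was lower, and the median was 0.92. Lss, which closes the sterol rings, was at 23.3, 31.5, 43.6 and 50.8 CPM in normal liver and at 150, 155, 149 and 245 CPM in the tumours (2.23 ± 0.37, adjusted p = 0.0111). Hmgcs1, at the head of the pathway, was at 33.9, 24.0, 50.2 and 128 CPM and at 242, 257, 166 and 466 CPM (2.26 ± 0.50, adjusted p = 0.0182). The tumours lay above the normal livers for both, with Normal 4 the highest normal liver. Mvd rose by 1.94 ± 0.33, Cyp51 by 1.66 ± 0.39, Mvk by 1.27 ± 0.33 and Sqle by 2.20 ± 0.58. The 7 calls became 2 without Normal 1, Normal 3 or Regress 4, 3 without Normal 2, 4 without Grow 1, and 0 without Normal 3 and Regress 4.

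Of 18 tested genes that respond to PPAR nuclear receptors or coat lipid droplets, 7 rose (38.9% against 4.27% of all features). None fell, and the median was 0.77. Cd36, the fatty acid translocase, was at 13.9, 30.1, 7.47 and 17.3 CPM in normal liver and at 71.3, 168, 97.1 and 77.2 CPM in the tumours (2.59 ± 0.45, adjusted p = 0.0111). The droplet coat protein Plin2 was at 120, 93.4, 152 and 206 CPM and at 493, 637, 717 and 559 CPM (2.07 ± 0.48, adjusted p = 0.0221). Neither overlapped between groups. Vnn1, a pantetheinase, rose by 4.82 ± 0.91, the fatty acid carrier Fabp4 by 3.31 ± 0.64, Pdk4 by 2.98 ± 0.65, Cidec by 4.62 ± 1.03 and Cidea by 6.14 ± 1.69. Cidec had counts in no normal liver but Normal 4 (1.45 CPM). Ppara itself was not called, at 111 to 322 and 104 to 158 CPM. The list had 3 calls without Normal 1 or Normal 3, 4 without Normal 2 or Normal 4, and 1 without Normal 4 and Regress 2. Fatty acid oxidation had 2 lower members of 18 (11.1% against 2.48% of all features), Cpt2 (-1.15 ± 0.31) and Acaa1b (-1.72 ± 0.46). Cpt2 lost its call in 6 of the 8 fits without 1 library and Acaa1b in 7. Of 18 genes of fatty acid and triglyceride synthesis 1 rose (5.56% against 4.27% of all features). It was the elongase Elovl7 (6.18 ± 1.34), which lost its call in 4 of those fits. Fasn was at 189 to 981 and 197 to 802 CPM.

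In the BCL2 family, whose members promote or block cell death at mitochondria, 3 of 14 tested genes rose and 1 fell. The share called was 28.6%, against 6.75% of all features. The death-promoting Bmf was at 23.2, 7.88, 23.9 and 23.3 CPM in normal liver and at 2.93, 2.28, 4.15 and 4.23 CPM in the tumours (-2.53 ± 0.57, adjusted p = 0.0190). The protective Bcl2 rose by 2.32 ± 0.59 and Bcl2l1 by 1.21 ± 0.31, and the pore-forming relative Bok by 1.54 ± 0.44, with Regress 2 at 74.5 CPM. None of the 3 rises was called without Normal 1, 2, 3 or 4 or without Regress 4, and 1 was without Grow 1 or Regress 2. Among 20 tested p53 targets, Cdkn1a, Btg2 and the death receptor Tnfrsf10b (4.19 ± 0.83) rose and none fell. That is 15%, against 4.27% of all features. Mdm2, the p53-induced ligase, was at 20.6 to 33.4 and 20.3 to 64.2 CPM and was not called.

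Of 19 tested genes of the NRF2 antioxidant response 2 rose and 2 fell (21.1% called, against 6.75% of all features). Srxn1 rose by 1.55 ± 0.31 and G6pdx by 2.88 ± 0.73, whereas Gclm (-1.14 ± 0.24) and the glutathione transferase Gsta2 (-4.94 ± 1.10) fell. Of the 8 fits without 1 library, G6pdx lost its call in 7, Gclm in 2, Gsta2 in 1 and Srxn1 in 0. Acute phase proteins had 3 lower members of 18 and 1 higher (22.2% called, against 6.75% of all features). The lower ones were Orm3 (-4.67 ± 0.98), Lbp (-1.26 ± 0.28) and Saa4 (-1.34 ± 0.38), and the higher one was Lcn2. No fall among them was called without Grow 1, and 1 was without Normal 1 or Normal 3. In iron handling, Slc40a1, the iron exporter, fell by 1.30 ± 0.26 and Id1, a target of BMP signalling, rose by 2.93 ± 0.74. Of the 17 tested, 11.8% were thus called, against 6.75% of all features. Id1 lost its call in 6 of the 8 fits without 1 library. Of 17 glycolysis genes, the phosphofructokinase Pfkp alone rose (2.67 ± 0.72), or 5.88% against 4.27% of all features. Pfkp lost its call in 7 of the 8 fits without 1 library.

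Zonation genes of the beta-catenin pathway, which marks hepatocytes around the central vein, had 0 called of 16, against 6.75% of all features. In Regress 4, 10 of the 16 lay above and 3 below every normal liver, against 29.8% and 27.4% of all features. None lay above in the 3 other tumours. Below every normal liver lay 14 in Grow 1, 13 in Grow 5 and 14 in Regress 2, against 22%, 19.5% and 30.7% of all features. Glul, glutamine synthetase, was at 292, 225, 375 and 583 CPM in normal liver and at 39.6, 43.7, 22.7 and 1519 CPM in the tumours. Regress 4 was thus above all normal livers and the other tumours below them. The Wnt target Axin2 showed the same split, with 26.1 CPM in Regress 4, 0.593 to 0.913 CPM in the 3 other tumours and 1.40 to 5.27 CPM in normal liver, and so did Lgr5, with 11.3, 0.198 to 0.799 and 0.876 to 3.88 CPM. Not all members followed: Cyp2e1 was at 1354 CPM in Regress 4, below the 2857 to 8397 CPM of normal liver, and at 41.8 to 227 CPM in the others. The log2 change of Glul was 0.14 ± 1.61 (adjusted p = 0.981), and -3.38 without Regress 4 (adjusted p = 0.345).

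The circadian clock, in which Arntl and Npas2 stand opposite Dbp, Tef and Per3 in the daily cycle, also divided the tumours. Arntl was at 0.436 to 2.39 CPM in normal liver and at 11.4, 24.1, 0.395 and 27.8 CPM in the tumours (3.77 ± 0.94, adjusted p = 0.0289). Dbp was at 59.6 to 132 CPM in normal liver and at 48.6, 2.06, 166 and 1.98 CPM in the tumours. Grow 5 and Regress 4 thus had high Arntl with low Dbp, Regress 2 had Arntl just below and Dbp just above the range of normal liver, and Grow 1 had raised Arntl with Dbp a little under that range. Per3 was at 12.3 to 32.7 CPM and at 23.2, 1.14, 16.0 and 0.564 CPM. Npas2 rose by 5.47 ± 1.35, and the outputs Hlf (-1.61 ± 0.32) and Usp2 (-3.44 ± 0.96) fell. So 2 of 14 core clock genes were called higher (14.3% against 4.27% of all features) and 2 of 15 output genes lower (13.3% against 2.48%). Of the 8 fits without 1 library, Arntl lost its call in 7, Npas2 in 6, Usp2 in 7 and Hlf in 0. With limma-voom 0 core clock genes were called higher. The labels used here give no hour of collection, and its part in these levels was not tested.

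**Figure D5:**
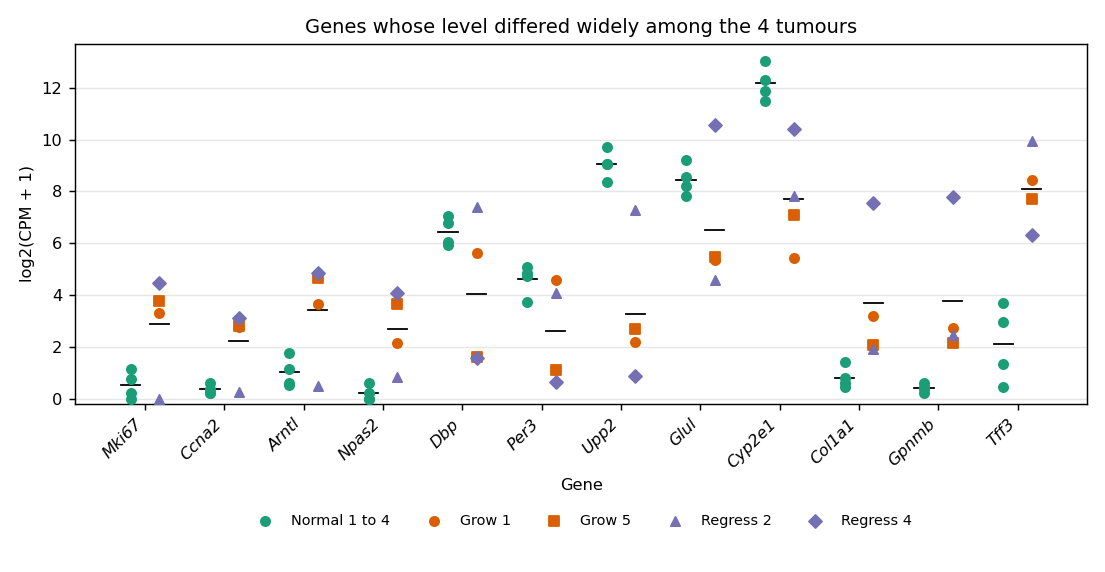
Level of 12 genes whose values differed widely among the tumours, as log2(CPM + 1), with normal livers in green on the left of each gene, Grow tumours in orange and Regress tumours in purple on the right, and a black line at the mean of each group's log2 values. Regress 2 sits with or next to the normal livers for Mki67, Ccna2, Arntl and Dbp, and Regress 4 alone is high for Glul, Col1a1 and Gpnmb.

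Each sample is a piece of tissue, so fewer cells of a type and less RNA per cell cannot be told apart. Of 10 hepatocyte markers none was called, and their summed level was 79590 to 115200 CPM in normal liver and 209400 to 287100 CPM in the tumours. In the tumours, but not in normal liver, most of that sum was Alb. Alb was at 28650, 31026, 44750 and 53813 CPM in normal liver and at 142280, 187270, 111440 and 131060 CPM in the tumours (1.85 ± 0.63, adjusted p = 0.0959). Albumin took 2.98% to 4.95% of the counts in normal liver and 9.25% to 17.6% in the tumours. Scaling by library size alone, with no TMM factor, called 801 features, 704 of them among the 830.

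Markers of Kupffer cells, the resident macrophages of the liver, were lower at 4 of 12 members (33.3% against 2.48% of all features). None was higher, and the median was -1.86. Vsig4, a complement receptor, was at 67.9, 41.0, 24.2 and 29.2 CPM in normal liver and at 3.66, 10.3, 11.9 and 11.6 CPM in the tumours (-2.13 ± 0.41, adjusted p = 0.0123). Timd4 (-2.81 ± 0.65), Folr2 (-3.63 ± 0.75) and Slc40a1 (-1.30 ± 0.26) fell too. Clec4f, the defining marker, was at 75.8 to 181 CPM in normal liver and at 3.66, 14.0, 92.5 and 16.9 CPM in the tumours, and the complement gene C1qa at 43.5 to 158 and 29.2 to 89.7 CPM. Neither was called. Normal 1 was the highest library for most of these markers, with a summed level of 1433 CPM against 587.8 to 852.7 CPM in the other normal livers and 179.8 to 465.1 CPM in the tumours. Without Normal 1 the log2 change of Timd4 went from -2.81 to -1.91 and that of Folr2 from -3.63 to -2.66. The list had 2 calls without Normal 1 or Grow 1, 3 without Regress 4 and 0 without Normal 4 and Regress 2. Of 11 tested markers of recruited monocytes and macrophages Gpnmb alone rose (9.09% against 4.27% of all features). Their summed level was 98.02 to 443.1 CPM in normal liver and 217.7 to 694.5 CPM in the tumours.

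Of 14 tested stellate cell and matrix genes 4 rose and 1 fell (35.7% called, against 6.75% of all features). Regress 4 carried most of the difference. Col1a1, the chief fibrillar collagen, was at 0.351, 0.526, 1.64 and 0.727 CPM in normal liver and at 8.13, 3.20, 2.77 and 186 CPM in the tumours (5.89 ± 1.37, adjusted p = 0.0217). Without Regress 4 its log2 change was 2.51 and its adjusted p 0.0733. Col1a2 was at 201 CPM and Col3a1 at 266 CPM in Regress 4, against 5.14 to 9.60 and 12.9 to 30.1 CPM in the other tumours. Sparc, a matrix glycoprotein also made by endothelium, rose in a different way, with 52.4 to 80.7 CPM in normal liver and 992, 205, 507 and 875 CPM in the tumours (3.33 ± 0.63, adjusted p = 0.0120). Lrat, which stores retinol in quiescent stellate cells, fell by 1.91 ± 0.47 on the log2 scale. The list had 1 higher call without any single normal liver or Regress 4. Its summed level was 299.0 to 512.9 CPM in normal liver and 362.5 to 2209 CPM in the tumours.

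Endothelial markers changed in part. Cd34, of continuous endothelium, was at 0.702, 1.05, 0 and 1.02 CPM in normal liver and at 7.91, 5.94, 16.0 and 13.3 CPM in the tumours (3.93 ± 0.85, adjusted p = 0.0172), and Emcn rose by 1.70 ± 0.46, while Ly6a fell by 2.46 ± 0.62 on the log2 scale. Those were 3 of 9 members (33.3% against 6.75% of all features), with a summed level of 94.79 to 120.9 CPM in normal liver and 100 to 134.3 CPM in the tumours. Emcn and Ly6a lost their call in all 8 fits without 1 library, and Cd34 in 2. Of 10 sinusoidal markers Lyve1 alone rose (3.49 ± 0.77), or 10% against 4.27% of all features, and it lost its call in 3 of those fits. Stab2 was at 25.8 to 46.9 and 18.6 to 32.5 CPM.

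In the ductular list, Tspan8 (6.75 ± 1.38) and the keratin Krt23 (6.86 ± 1.46) rose of 7 tested (28.6% against 4.27% of all features). The defining duct keratin Krt19 was at 0.299 to 1.05 CPM in normal liver and at 0.395 to 2.54 CPM in the tumours, and Krt7 was below the filter. Tspan8, at 181 to 499 CPM, made up most of the list's summed level of 294.0 to 630.0 CPM in the tumours (19.49 to 28.09 CPM in normal liver). Fabp4 and Cidec were the only adipocyte markers above the filter, and both rose, while Adipoq, the defining one, was below it. Alas2, an erythroid enzyme of haem synthesis, fell by 2.61 ± 0.53. No T, NK, B, plasma cell, neutrophil or acinar marker was called among the 10 that passed the filter.

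Besides the beta-catenin list above, some programmes had no called member. They were gluconeogenesis and glycogen (12 tested), secreted hepatocyte proteins (23), imprinted growth genes (10), repair of alkylated and mismatched DNA (11), and antigen presentation with interferon response (27). With 6.75% of all features called, 0 calls in lists of this size say little about these programmes. Mgmt, which reverses DNA alkylation, was at 6.57 to 31.0 CPM in normal liver and at 6.74 to 22.9 CPM in the tumours. H2-K1, a class I heavy chain, was at 138 to 258 and 210 to 293 CPM. Ttr, transthyretin, was at 4629 to 7466 and 2285 to 5225 CPM.

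Set against the 6 drug-treated tumours, the 4 tumours given no drug had 0 features called by edgeR, with 1026 at an unadjusted p under 0.05 and a lowest adjusted p of 0.333. limma-voom also called 0 and DESeq2 called 142, 16 of them higher without drug. The genes with the lowest p that were higher without drug were Ift122, Lss, Ddit4, Hdac7 and Pomgnt2, and those lower were Acsm1, Nr1i3, Cyp2c54, Vsig4 and Pon1. Acsm1, an acyl-CoA synthetase of liver mitochondria, was at 43.9 to 58.7 CPM in the 4 tumours given no drug, at 80.4 to 271 CPM in the drug-treated tumours and at 216 to 333 CPM in normal liver. Hdac7, a class IIa histone deacetylase, was at 9.70 to 25.8 CPM, 2.24 to 7.59 CPM and 3.69 to 4.20 CPM in the same order. These levels did not overlap between the tumour groups, but none passed the test.

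Within the tumours given no drug, the 2 Regress and the 2 Grow samples differed at 0 features by edgeR, with 264 at an unadjusted p under 0.05 and every adjusted p at 1. limma-voom called 0 and DESeq2 5. The lowest p belonged to Pth1r, Lum, Cygb, Angptl2 and Ltbp1 (higher in Regress) and to Olfm3, Slc25a25, Mbnl3, Xpo4 and Tram2 (lower). Lum, a collagen-binding proteoglycan, was at 4.74 and 64.8 CPM in Regress 2 and Regress 4 and at 1.90 and 0.799 CPM in Grow 1 and Grow 5. Each side had 2 samples, and Regress 2 and Regress 4 were apart from each other for the genes of mitosis, the clock and beta-catenin given above.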

How the data were processed

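Total RNA of 14 snap-frozen samples was made into Illumina TruSeq RNA v2 libraries, per the labels' protocols, a kit that does not mark strand. The authors deposited 1 table of estimated counts for 35230 RefSeq transcript rows, not normalized, per the file headers. Tools named in the submitters' processing notes are Salmon 0.3.1 and edgeR 3.14.0, and the build is mm9. The table has 1 further column, which was not used.

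Rows were named through RefSeq GRCm38.p6 (26077) or GENCODE M21 (148), and 9005 unnamed rows, 3.52% to 12.1% of each of the 8 libraries, stayed features of their own. Counts were summed per gene and rounded, giving 30436 features. Features were tested by quasi-likelihood in edgeR 4.0.16 (with limma 3.58.1, R 4.3.3), using robust dispersions, TMM and filterByExpr, on all 14 samples in 3 groups. The drug-treated Grow 3 and Grow 4 counted as separate samples for the spread. They correlated at 0.979 in log2 CPM, the most alike of all pairs (the next pair, Grow 2 and Grow 5, at 0.951). With both summed into 1 library, 769 features were called. Log2 CPM used a prior count of 2. DESeq2 1.42.0 and limma-voom were alternatives. Standard errors are the log2 fold change divided by the root of F. The biological coefficient of variation was 0.481.

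Genes named by rule were the 8 largest rises and falls with mean log2 CPM of at least 1 and no overlap, up to 4 called members of each of 33 programme and 13 cell type lists, Afp, Gpc3, Glul, Mki67, Cdkn1a and Ccnd1, and the 5 lowest p each way in comparisons with no call. Other genes were named after their values were seen. Members and lists were chosen with earlier results of these data known. The labels do not state separate animals, so the p-values reflect only how these samples vary, which may be technical.

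The slope of a library's log2 levels on log2 transcript length ran from -0.26 (Normal 2) to 0.45 (Normal 3) in normal livers. In the tumours it ran from -0.39 (Regress 2) to 0.39 (Regress 4). On simulated counts for this comparison (12136 genes, 200 of them altered) edgeR found 4.48% of genes altered by 1 log2 unit, 44.8% at 2 and 92.4% at 4. Of its calls there 3.09% were false, against 20.4% for DESeq2 and 1.05% for limma-voom. These rates belong to the simulated counts and are not the rates among the 830 features called.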

Additional observations from a re-analysis of the deposited data

Results flagged for a closer look

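Among 125 named genes in the 2 groups of 4, 24 of 250 sets of values had 1 library far from the other three, with a gap to its nearest neighbour that made up most of the range. Chance would flag about 1 in 20 such sets if levels were normally distributed and genes were chosen without regard to their spread. The distribution of these CPM levels was not tested, and a set with counts in only 1 library is always flagged. Nearly all the genes were named for a call or a low p. Lum, Cygb, Angptl2, Ltbp1 and Olfm3 were named for their low p between Regress and Grow tumours. The rate therefore cannot say how many of the 24 flags are due to chance. Of the 24, 10 were a highest level in Regress 4. There Glul stood at 1519 CPM against 22.7 to 43.7 CPM in the other tumours, Gpnmb at 217 against 3.42 to 5.57, Col1a1 at 186 against 2.77 to 8.13 and Col1a2 at 201 against 5.14 to 9.6. Lum stood at 64.8 CPM against 0.799 to 4.74, Cygb at 36.7 against 2.28 to 4.74, Angptl2 at 23 against 2.28 to 3.56 and Ltbp1 at 6.77 against 0.147 to 0.395. Lss at 245 CPM against 149 to 155 and Hdac7 at 25.8 against 9.7 to 12.3 completed the 10.

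In Regress 2, Trib3 was highest at 98.3 CPM against 17.9 to 30.5, Cdkn2c was highest at 20.4 against 8.11 to 10.1, and Ly6a was lowest at 1.78 against 6.91 to 7.54. In Grow 5, Alas2 was highest at 51.5 CPM against 16.2 to 20.1 and Olfm3 at 12.1 against 0 to 1.1.

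Among the normal livers, Normal 2 was highest for Fam25c at 74.3 CPM (9.26 to 20 in the others) and Akr1d1 at 256 (153 to 170), and lowest for Bmf at 7.88 (23.2 to 23.9) and Junb at 8.76 (18.4 to 19.2). Normal 1 was highest for Lcn2 at 47.4 CPM (21.7 to 23.6) and Prom2 at 0.527 (0.145 to 0.175). The only counts of Erich4 (0.145 CPM) and Cidec (1.45 CPM) were in Normal 4 and those of Dusp5 (0.149 CPM) in Normal 3, which is near 1 count for Erich4 and Dusp5.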

How the results depend on the processing

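For tumours given no drug against normal liver, 830 features were called. The count moved to 1535 with DESeq2's Wald test, 519 with limma-voom, 1302 with the transcript length trend removed and 37 without Normal 4 and Regress 2. It was 0 without Normal 3 and Regress 4, a setting chosen after seeing the data, as was scaling by library size alone (801). Leaving out 1 library at a time gave 243 to 803. Leaving out samples leaves fewer to test with, and no other cause was tested. With DESeq2 size factors, no or another count filter, Grow 3 and Grow 4 summed, named features only, the 8 samples alone, DMSO tumours alone, or drug-treated tumours split by label, the count was 711 to 1083. With the title number as a replicate block it was 215. The labels do not say that the numbers pair the samples, and Regress 2 shares its code with Normal 4 and not with Normal 2. The correlations of the deviations of same-numbered tumours and normal livers were -0.049 (Grow 1), 0.399 (Regress 2) and -0.104 (Regress 4). They are too few to decide whether the numbers pair samples. The block changed neither of the other 2 counts. Those were 0 in all settings run except DESeq2's, with 142 against drug-treated tumours and 5 for Regress against Grow. No called named gene changed direction in any setting run. Of those not called, several did: Glul went from 0.14 to -0.05 without Normal 2 and to -3.38 without Regress 4, and Lum from 1.34 to -1.57 without Regress 4. Among the lists, calls higher went with limma-voom from 16 to 1 for mitosis, from 11 to 4 for oncofetal markers, from 6 to 3 for G1 and from 7 to 3 for PPAR-responsive genes. With the 8 samples alone they were 1 for mitosis, 11 for oncofetal markers and 8 (from 4) for ERK output. Of 125 named genes, 113 lost their call without Normal 3 and Regress 4, 96 without Normal 4 and Regress 2, 66 with the block, 48 with limma-voom and 14 to 51 without 1 library. Low counts limit genes near 0 in normal liver: 115 called features had 0 counts in at least 1 normal liver and 15 in all 4.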
